A study of Mus musculus with 6 samples.

Results

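The renin-angiotensin-aldosterone genes described here are Agt, Ace, Agtr1a, Agtr1b, Agtr2, Mas1, Atp6ap2 and Nr3c2, chosen by name as 8 of the 54532 genes in the deposited expression table. Their RNA was measured in the hearts of 3 wild-type (WT) and 3 Mc4r knockout (Mc4r KO) mice by sequencing of polyadenylated RNA, with 1 library per mouse, named below by group and replicate number (WT 1 to WT 3, KO 1 to KO 3). All mice were male littermates of 12 weeks on the C57B/6/N background, bred from heterozygous parents. The deletion was present in the whole body, so the heart and every other organ of the KO mice lacked the melanocortin-4 receptor, a brain receptor whose loss is known to cause overeating and obesity. The tissue is called heart and also muscle by the sample labels, and left ventricle by the study's text.

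In this pathway, angiotensinogen (Agt) is the protein from which renin releases angiotensin I, and angiotensin-converting enzyme (Ace) trims it to angiotensin II. Angiotensin II raises blood pressure, drives growth and matrix production in the heart through its type 1 receptors (Agtr1a and Agtr1b in mice), and makes the adrenal gland release aldosterone, the ligand of the mineralocorticoid receptor (Nr3c2). The type 2 receptor (Agtr2) and Mas1, the receptor of angiotensin 1-7, are known to oppose many of these actions, and Atp6ap2 is the prorenin receptor and an accessory protein of the vacuolar proton pump.

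Expression is given as FPKM, which divides the fragments of a gene by the gene's length and by a scaling factor of the library. Levels can so be set side by side between genes. This factor did not follow the reads on genes, and the deposited values had the same median-of-ratios factor (1.01) in each library. The WT libraries held 14767929 to 16047003 reads on genes and the KO libraries 14691076 to 15649074, and a 1 kb gene with 3 reads would have 0.176 to 0.213 FPKM. Mc4r itself had 2 reads in WT 3 and 0 in the other 5 libraries, which is too few to check the genotype. WT 3 stood apart from the other WT libraries. Its summed atrial markers (Nppa, Sln, Myl4 and Myl7) were 747 FPKM, against 28.6 and 95.2 in WT 1 and WT 2 and 6.29 to 136 in the KO libraries. Its read counts differed less from the KO libraries than from WT 1 and WT 2. The chi-square per degree of freedom, over genes with enough reads in the pair, was 23.4 to 32.3 against 45.2 and 40.5. The Pearson correlation of log2 levels over 11297 genes separated them less, with 0.951 to 0.962 for the KO libraries against 0.946 and 0.952. Results that rest on WT 3 are given with and without it. The mitochondrial share of all FPKM was 47.1% to 59.3% in WT and 43.0% to 46.6% in KO libraries, without overlap.

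The sequences just upstream of a RefSeq start site of Agt and of Nr3c2 are shown. These members differed between the groups without overlap and lie at opposite ends of the pathway. Both are the 250 bases before a RefSeq start site on GRCm38.p6, at chr8:124569707-124569956 on the minus strand for Agt and at chr8:76902080-76902329 on the plus strand for Nr3c2, and capitals mark a TATA box (TATAAA). The annotated Nr3c2 gene begins at 76899442, so its window lies inside the gene and precedes an internal start site.
Agt: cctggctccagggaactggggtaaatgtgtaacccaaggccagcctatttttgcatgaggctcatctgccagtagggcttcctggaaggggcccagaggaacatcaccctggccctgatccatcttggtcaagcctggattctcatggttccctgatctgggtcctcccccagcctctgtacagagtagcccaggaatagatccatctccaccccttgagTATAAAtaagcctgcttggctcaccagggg
Nr3c2: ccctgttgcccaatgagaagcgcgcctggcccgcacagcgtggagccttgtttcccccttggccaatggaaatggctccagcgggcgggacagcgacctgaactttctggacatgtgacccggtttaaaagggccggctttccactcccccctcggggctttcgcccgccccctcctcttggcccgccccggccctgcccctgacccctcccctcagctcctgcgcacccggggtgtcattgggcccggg
The TATA box of Agt began at position -30, counted from -1 at the base before the start site. The Nr3c2 window shown held none, and sequence before the first base of that gene was not searched. Of 32851 RefSeq windows of this length, 12.4% held TATAAA on either strand. Agtr1b also held it at -31, as did 1 of the RefSeq windows of Ace but not the other. AGAACA, an arm of the element bound by mineralocorticoid and glucocorticoid receptors, and the E-box CACGTG occurred in 16.1% and 6.02% of all windows. Neither was found in the Agt and Nr3c2 windows, and AGAACA occurred at -131 of Atp6ap2. These matches are letters in a window and were not measured as sites. The RefSeq table held 7 of the 8 members, and Agtr1a was the other.

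The groups were compared with limma on log2(FPKM + 0.1) over the 18035 genes whose mean FPKM reached 0.1, with the Benjamini-Hochberg adjustment over all of them. A call needs both an adjusted p under 0.05 and a log2 fold change beyond 0.75 in either direction, and fold changes on this scale understate those of weakly expressed genes. Of the 8 members, 6 were tested and 2 (Agtr1b and Agtr2) had no read in any library. Limma called 0 of the 6, against 0.46% of all genes tested (0.316% higher and 0.144% lower in the KO mice), and limma voom on the reads recovered from the FPKM called 1 of the 6, Agt, against 1.19%. At an unadjusted p under 0.05 there were 3 members, against 20.9% of all genes. Agt was higher (12% of all genes were) and Agtr1a and Nr3c2 were lower (8.83% of all genes were). The same 3 were the members whose WT and KO values did not overlap, against 26.4% of all genes (14.1% higher and 12.4% lower). The median log2 fold change was -0.12 over the 6 members and -0.011 over all genes. The study itself singled out Agt from these same libraries, so its difference here is not independent evidence.

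**Figure D1:**
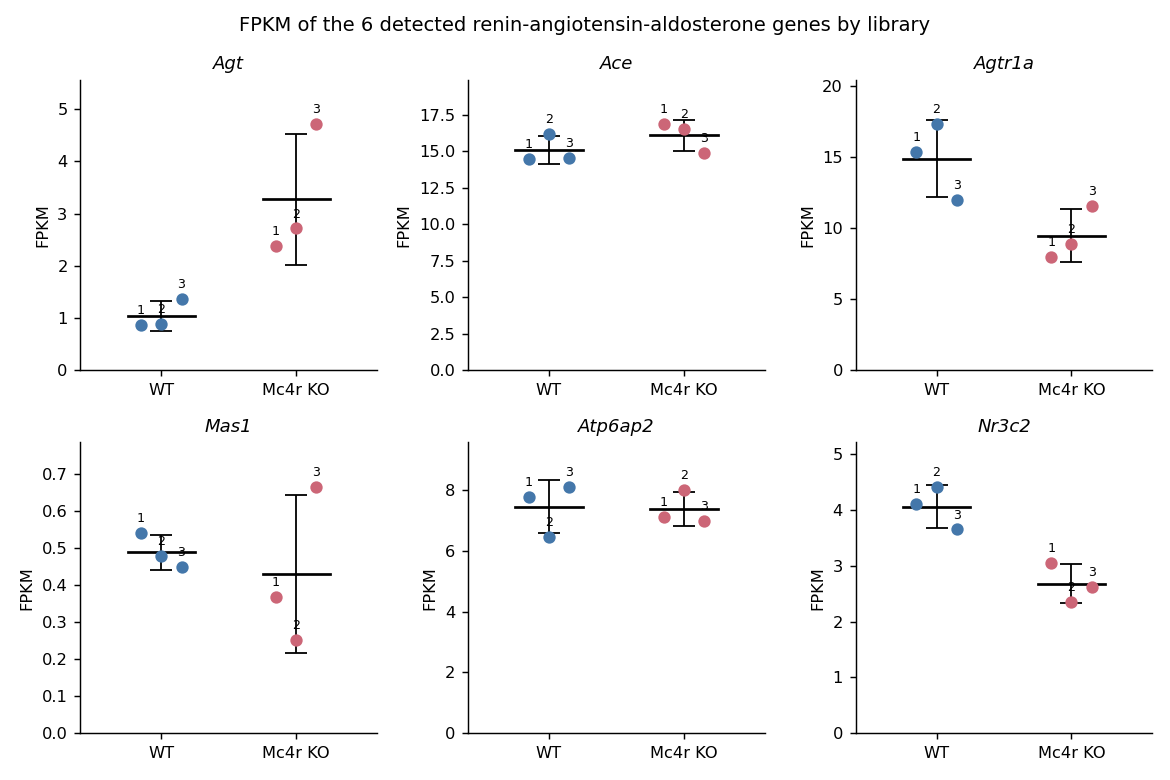
FPKM of the 6 members with reads in each library (points numbered by replicate, WT and Mc4r KO on the x axis), with the group mean (horizontal line) and SD (bars, n = 3). The KO points lie above all WT points for Agt and below them for Agtr1a and Nr3c2, and the groups overlap for Ace, Mas1 and Atp6ap2.

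Agt, the precursor of all angiotensins, showed the largest difference of the 6 tested members. Agt (ENSMUSG00000031980) lies on the minus strand of chromosome 8 from 124556534 to 124569706, with 5 exons and no overlap with exons of another gene. Its level was 0.863, 0.884 and 1.37 FPKM in WT 1 to 3 and 2.38, 2.72 and 4.71 FPKM in KO 1 to 3, from 23, 24 and 44 reads and 70, 78 and 143 reads. The highest WT value was the one of WT 3 and the highest KO value the one of KO 3, and the groups did not overlap. The mean was 1.04 ± 0.285 FPKM in WT and 3.27 ± 1.26 FPKM in KO mice (SD, n = 3), a ratio of 3.15.

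The log2 fold change of Agt was 1.53 (SE 0.29) with an unadjusted p of 0.000976 and an adjusted p of 0.0663 by limma, above the threshold. By limma voom it was 1.64 with an adjusted p of 0.0478. Agt was called under 5 of 20 alternative settings, with adjusted p from 0.0238 to 0.408 over all of them and a log2 fold change from 1.01 to 1.73. The settings with a call were voom, a mean FPKM of at least 1 (adjusted p 0.0471, where 1.3% of all genes were called), array weights, which weight each library by its spread (0.0338, 2.41%), protein-coding genes only (0.0318, 1.51%) and the libraries without WT 3 (0.0238, 4.04%). The lowest log2 fold change, 1.01, came from a fit with the GC percentage of each library's clean reads as a covariate. This percentage was higher in every KO library than in every WT library, but in WT 3 it was close to the KO libraries and well above WT 1 and WT 2. It and the genotype can hardly be told apart, and what separates them rests mainly on WT 3. The liver is the main source of circulating angiotensinogen, and fat tissue also makes it. The hepatocyte markers Alb and Serpina1a had no read in any library, and the summed level of the 4 hepatocyte markers was 0.454 to 0.765 FPKM in WT and 0.368 to 2.32 FPKM in KO mice. The adipocyte markers Lep, Retn and Ucp1 were at 0 and the summed level of the 7 adipocyte markers was lower in KO (0.0283 to 0.328 FPKM) than in WT mice (0.467 to 1.02 FPKM). Both sums rest on few reads. Apoa2 had 3 to 18 reads per library and Cfd 0 to 11, and each was the only tested marker of its list. The source of the Agt RNA was not tested.

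**Figure D2:**
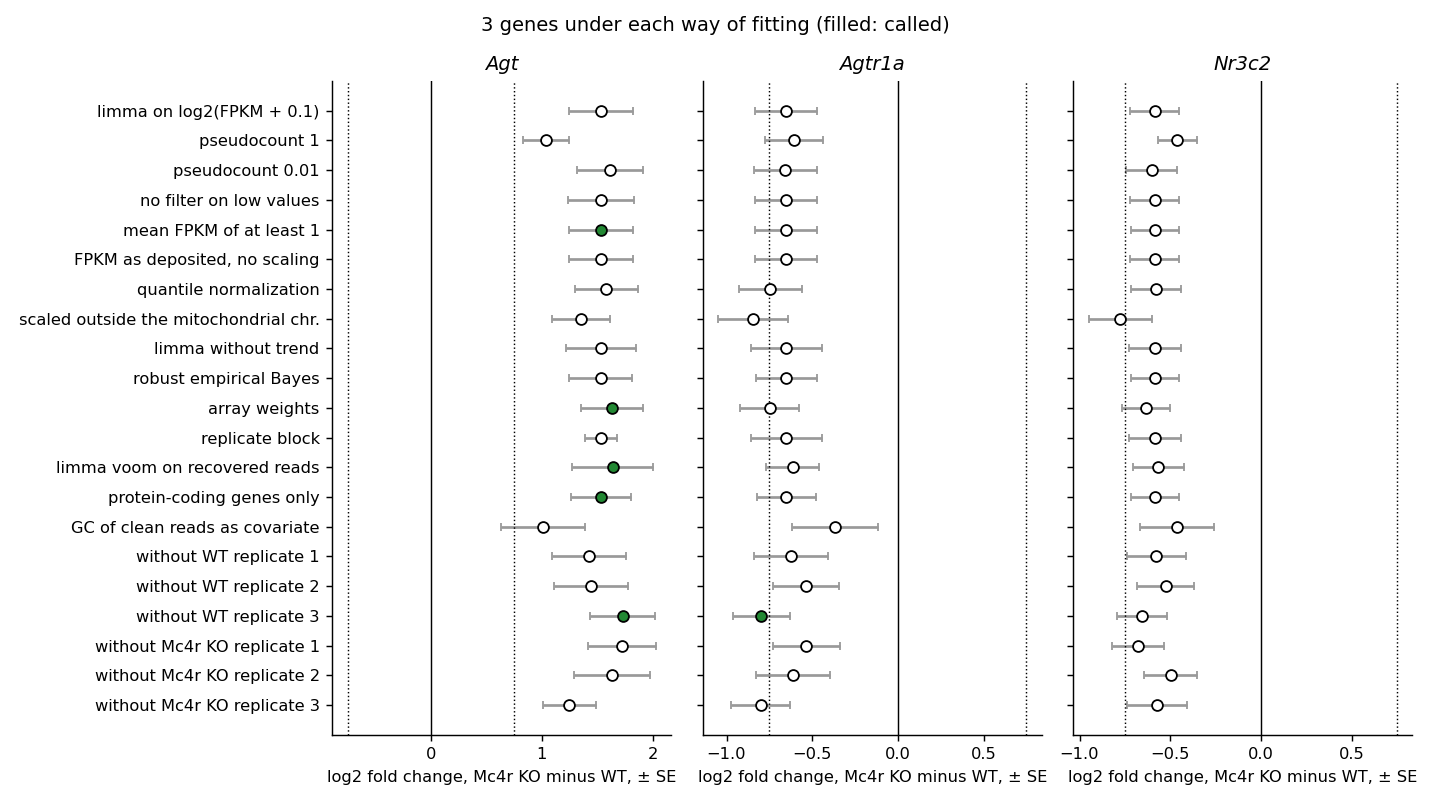
Log2 fold changes (Mc4r KO minus WT, with SE) of Agt, Agtr1a and Nr3c2 in the limma fit, in the top line, and under each of 20 alternative settings below it; dotted lines mark 0.75 in either direction, and filled points are called. Agt keeps to the right of 0.75 and Agtr1a and Nr3c2 stay below 0 in every setting, with 5, 1 and 0 filled points.

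Ace, the enzyme that makes angiotensin II and also degrades bradykinin, had the highest mean level of the members in both groups. Ace (ENSMUSG00000020681) lies on the plus strand of chromosome 11 from 105967945 to 105989964. Its level was 14.5, 16.2 and 14.5 FPKM in WT 1 to 3 and 16.9, 16.5 and 14.9 FPKM in KO 1 to 3. All 6 values lay close together and the groups overlapped. The log2 fold change was 0.09 (SE 0.09, adjusted p 0.585 by limma), and it was below 0 with quantile normalization (-0.020) and with scaling outside the mitochondrial chromosome (-0.10). Of its exonic bases, 5.58% lie under exons of Gm11651 on the opposite strand, and the use of strand in counting is not given in the sources used here.

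Agtr1a, the main type 1 receptor of mice, was lower in the KO mice. Agtr1a (ENSMUSG00000049115) lies on the plus strand of chromosome 13 from 30336441 to 30382867. Its level was 15.4, 17.3 and 12.0 FPKM in WT 1 to 3 and 7.95, 8.86 and 11.5 FPKM in KO 1 to 3, from 344 to 693 reads per library. The lowest WT value, in WT 3, and the highest KO value, in KO 3, were 0.448 FPKM apart, so the groups only just did not overlap. The mean was 14.9 ± 2.69 FPKM in WT and 9.45 ± 1.87 FPKM in KO mice (SD, n = 3), a ratio of 0.635. Limma gave a log2 fold change of -0.65 (SE 0.18, adjusted p 0.120, and 0.0670 by limma voom), short of both thresholds. Without WT 3 it was -0.80 with an adjusted p of 0.0377 and Agtr1a was called, and with the GC percentage in the fit it was -0.37.

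Agtr1a is known in the heart from pericytes, smooth muscle cells and fibroblasts. In bulk tissue, fewer cells of a type cannot be told apart from less RNA per cell. The summed level of 6 fibroblast markers was 227, 227 and 244 FPKM in WT and 198, 169 and 173 FPKM in KO mice, without overlap. Of these 6 markers, 5 had a lower mean in KO mice and Col1a1 a higher one (20.2 against 15.4 FPKM in WT). By limma, 3 (Pdgfra, Dcn and Lum) were lower at an unadjusted p under 0.05, as were 8.83% of all genes. Dcn weighed most in the sum, with means of 119 FPKM in WT and 82.4 FPKM in KO mice. The summed level of 6 pericyte and smooth muscle markers was 334, 318 and 219 FPKM in WT and 242, 248 and 220 FPKM in KO mice, with overlap and with its lowest value in WT 3. Of these, 4 had a lower mean in KO mice, and Cspg4 and Myh11 had a higher one. Rgs5 weighed most in this sum, with means of 185 FPKM in WT and 144 FPKM in KO mice. Ratios of Agtr1a to these sums were computed after the values were seen. Per 100 FPKM of fibroblast markers, Agtr1a was 6.77, 7.62 and 4.92 in WT and 4.02, 5.24 and 6.66 in KO mice. Per 100 FPKM of pericyte and smooth muscle markers it was 4.60, 5.44 and 5.46 in WT and 3.29, 3.57 and 5.24 in KO mice. With all libraries the groups overlapped for both ratios, with differences of -0.29 and -0.38 on the log2 scale (exact permutation test, two-sided p = 0.4 and 0.2, where 0.1 is the smallest p that 3 against 3 libraries allow). Without WT 3 the fibroblast ratio did not overlap, with a difference of -0.47, the pericyte and smooth muscle ratio still overlapped (-0.34), and the pericyte and smooth muscle sum itself no longer did. The part of cell makeup in the difference of Agtr1a was otherwise not tested.

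**Figure D3:**
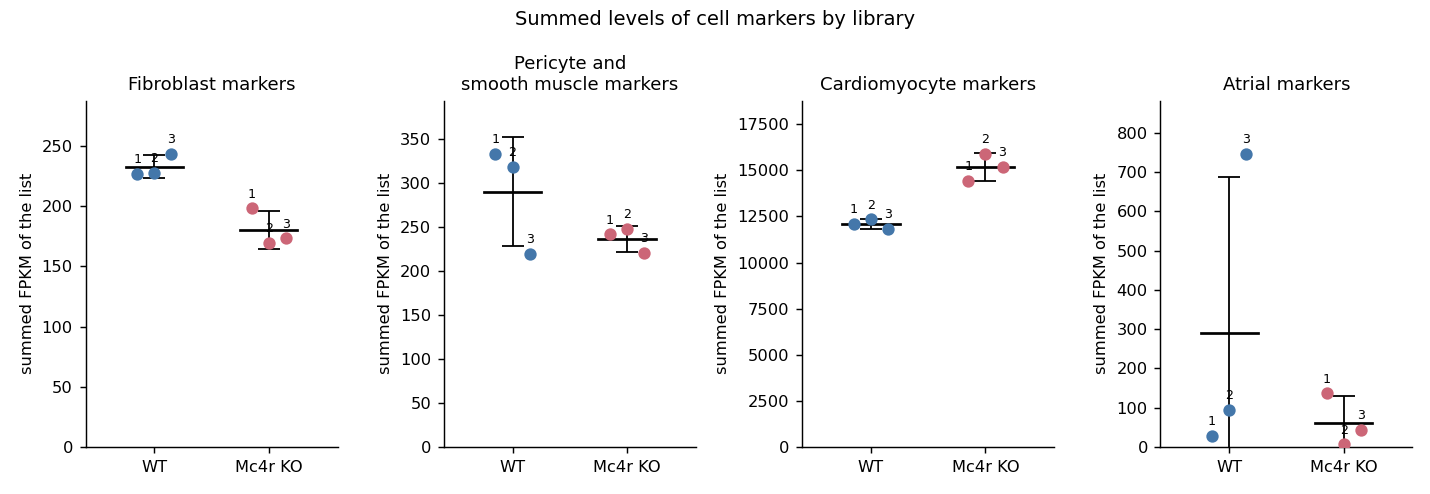
Summed FPKM of the fibroblast, pericyte and smooth muscle, cardiomyocyte and atrial markers in each library (points numbered by replicate), with the group mean (line) and SD (bars, n = 3; the lower bar of WT in the atrial panel is cut at 0). Fibroblast sums are lower and cardiomyocyte sums higher in all KO libraries, and WT 3 is far above the other libraries in the atrial markers.

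The other receptors were scarce or not detected. Agtr1b (ENSMUSG00000054988, chromosome 3 from 20314473 to 20367177), the second type 1 receptor of mice, had 0 reads in all 6 libraries, which allows levels of up to 0.0821 to 0.0991 FPKM. Agtr2 (ENSMUSG00000068122, chromosome X from 21484544 to 21489164) also had 0 reads in all 6, which allows up to 0.0530 to 0.0640 FPKM. These limits are 3 reads per library and cover counting error only. Of the words of 50 bases in Agtr1a transcripts, 1.27% also occur in other genes, and Agtr1b is the gene with the most of them. Mas1 (ENSMUSG00000068037, chromosome 17 from 12841079 to 12868143) was at 0.541, 0.478 and 0.448 FPKM in WT and 0.369, 0.251 and 0.666 FPKM in KO mice, from 10 to 28 reads per library. The lowest and the highest value were both in KO mice, so the KO range enclosed the WT range. Its log2 fold change was -0.23 (SE 0.33, adjusted p 0.729 by limma), and it was 0.029 without KO 2.

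Atp6ap2, the prorenin receptor, had nearly the same level in both groups. Atp6ap2 (ENSMUSG00000031007) lies on the plus strand of chromosome X from 12587801 to 12617049. Its level was 7.77, 6.46 and 8.12 FPKM in WT and 7.11, 8.02 and 7.0 FPKM in KO mice. The lowest and the highest value were both in WT mice. The log2 fold change was -0.01 (SE 0.12, adjusted p 0.976 by limma), and its sign changed under 6 of 20 alternative settings.

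Nr3c2, the mineralocorticoid receptor through which aldosterone and, in cardiomyocytes, glucocorticoids act, was lower in the KO mice. Nr3c2 (ENSMUSG00000031618) lies on the plus strand of chromosome 8 from 76899442 to 77245012, and 3.81% of its exonic bases lie under exons of Gm10649 on the opposite strand. Its level was 4.11, 4.42 and 3.66 FPKM in WT 1 to 3 and 3.06, 2.36 and 2.63 FPKM in KO 1 to 3, from 232 to 411 reads per library. The lowest WT value, in WT 3, was 0.600 FPKM above the highest KO value, in KO 1, so the groups did not overlap. The mean was 4.06 ± 0.385 FPKM in WT and 2.68 ± 0.351 FPKM in KO mice (SD, n = 3), a ratio of 0.660. The log2 fold change was -0.58 (SE 0.14, adjusted p 0.0947 by limma and 0.0631 by limma voom). It ranged from -0.77 to -0.46 over 20 alternative settings, and the adjusted p from 0.0389 (without WT 3) to 0.469 (GC percentage in the fit), with a call in none.

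Cardiomyocyte markers were higher in the libraries in which Nr3c2 was lower. The summed level of 6 markers (Myh6, Tnnt2, Tnni3, Actc1, Ryr2 and Myl2) was 12083, 12341 and 11819 FPKM in WT and 14412, 15909 and 15182 FPKM in KO mice, without overlap, and 5 of the 6 had a higher mean in KO mice. Actc1, the cardiac actin gene, made up most of this difference, with 4568 to 5495 FPKM in WT and 7123 to 8307 FPKM in KO mice, and Myh6, Tnnt2 and Tnni3 overlapped between the groups. Per 10000 FPKM of these markers, a ratio computed after the values were seen, Nr3c2 was 3.40, 3.58 and 3.09 in WT and 2.12, 1.48 and 1.73 in KO mice. Nr3c2 was lower and the sum higher in every KO library, so this ratio had to separate the groups and is only a description. Its difference was -0.93 on the log2 scale. The exact permutation test could only give its smallest two-sided p, 0.1. With Actc1 left out of the sum, the ratio was 6.24, 6.43 and 5.04 in WT and 4.19, 3.10 and 3.29 in KO mice, a difference of -0.75. The sum without Actc1 was also higher in every KO library, so this separation too was fixed in advance. The part of cell makeup in this difference was not tested.

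Per gene length, the levels of the members in WT mice followed the order Ace (mean 15.1 FPKM), Agtr1a (14.9), Atp6ap2 (7.45), Nr3c2 (4.06), Agt (1.04) and Mas1 (0.489). Only Ace and Agtr1a, as neighbours in this order, overlapped in their values. In KO mice the order was Ace (16.1 FPKM), Agtr1a (9.45), Atp6ap2 (7.38), Agt (3.27), Nr3c2 (2.68) and Mas1 (0.429). Here Agtr1a overlapped with Atp6ap2, and Agt with Nr3c2. Agt was thus below Nr3c2 in each WT library and above it in KO 2 and KO 3, with 2.38 against 3.06 FPKM in KO 1.

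The 5 genes whose pattern over the 6 libraries was most like that of Agt, by Pearson correlation of log2(FPKM + 0.1) among 11296 genes whose mean FPKM reached 1, were Hmga1b (r = 0.997), Hrc (0.995), Paf1 (0.994), Fhod1 (0.992) and Scarb2 (0.992). In each of these the KO values were above all WT values, which follows largely from their being picked for likeness to Agt. None was called by limma (adjusted p 0.0996 to 0.222). With 6 libraries in 2 groups, such correlations are a description. Among the members without overlap, Agt had r = -0.91 with Nr3c2 and -0.70 with Agtr1a over the same libraries.

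A list of 55 other genes of the pathway was read in the same fit. Of these, 41 were tested, 10 had no read in any library and 4 had reads but too few for the test. Limma called 1 of the 41, Fkbp5 (0.46% of all genes), and limma voom 2, Fkbp5 and Grk5 (1.19%). At an unadjusted p under 0.05 there were 15 (6 higher and 9 lower in KO mice), against 20.9% of all genes (12% higher and 8.83% lower). The groups did not overlap for 16 (7 higher and 9 lower), against 26.4% of all genes (14.1% higher and 12.4% lower). Their median log2 fold change was -0.049.

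**Figure D4:**
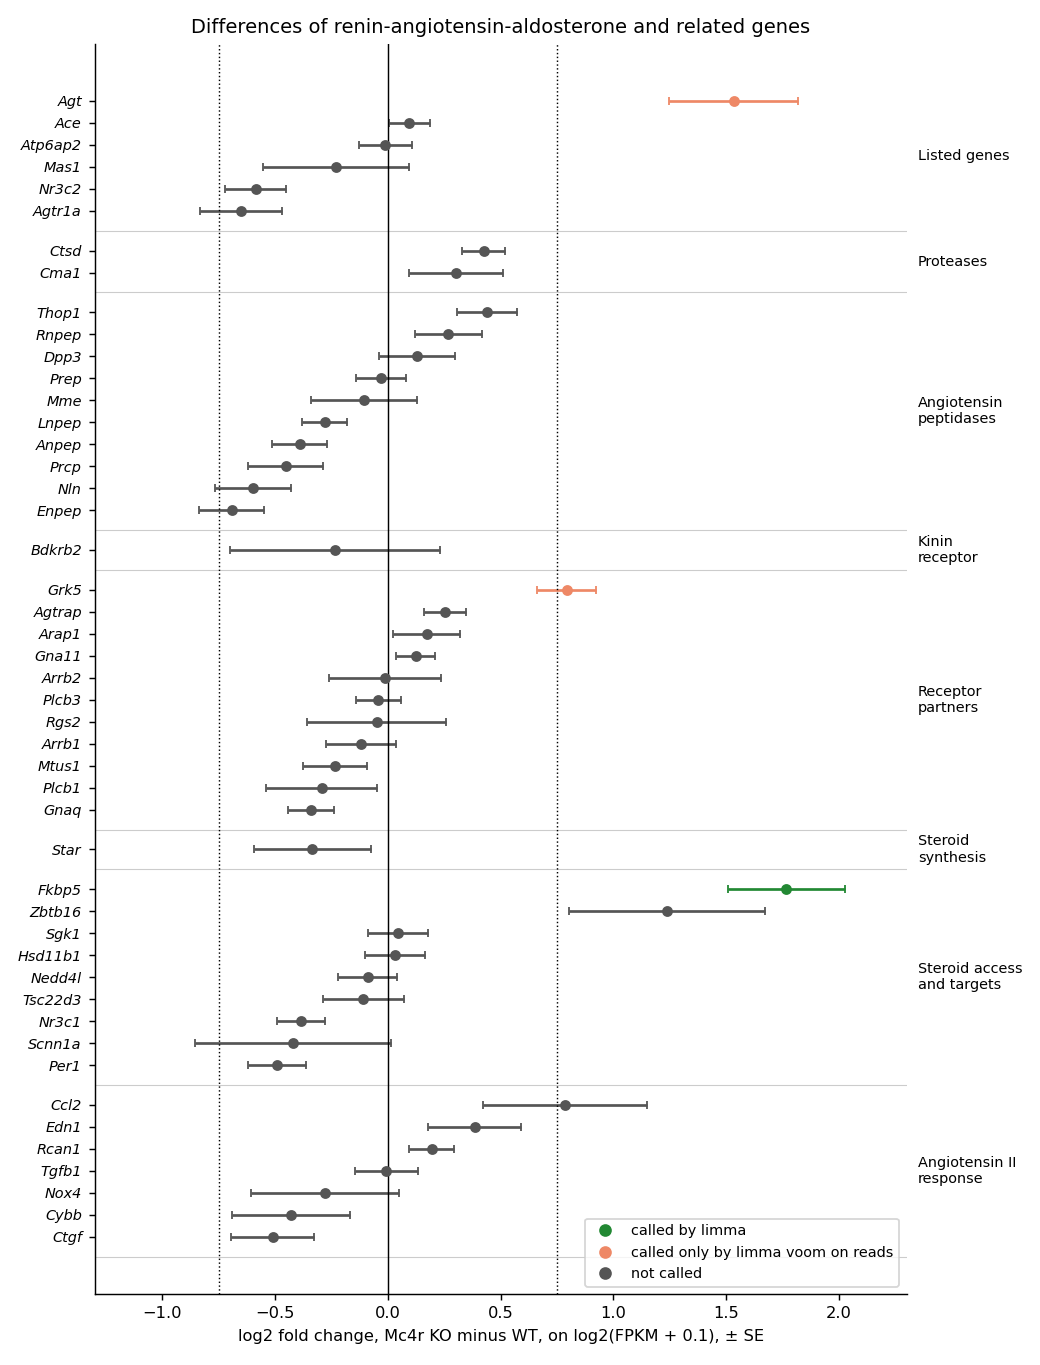
Log2 fold change (Mc4r KO minus WT, on log2(FPKM + 0.1), with SE) of the 6 tested members and the 41 tested genes of the wider list, by role; dotted lines mark 0.75 in either direction. Fkbp5 is the only gene called by limma (green). Agt and Grk5 are called by limma voom and not by the limma fit shown (orange), and most other genes lie within 0.75 of 0.

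Among the proteases that cut angiotensinogen or angiotensin I, renin itself (Ren1) had 0 reads in all 6 libraries, which allows up to 0.106 to 0.128 FPKM, and cathepsin G (Ctsg) and kallikrein (Klk1) also had none. Both other genes of this group were tested and neither was called by limma or limma voom (0.46% and 1.19% of all genes). Cathepsin D (Ctsd), a lysosomal protease able to cut angiotensinogen, was at 168, 168 and 175 FPKM in WT and 207, 235 and 245 FPKM in KO mice. The groups did not overlap, and the log2 fold change was 0.42 (adjusted p 0.0871 by limma). By limma voom it was 0.46 with an adjusted p of 0.0406, still short of the fold-change threshold. It was 0.22 with quantile normalization and 0.23 with scaling outside the mitochondrial chromosome. Of the exonic bases of Ctsd, 34.4% are shared with Gm49369 on the same strand. How reads on shared bases were counted is not given in the sources used here. The mast cell chymase Cma1 was at 0.754 to 1.04 FPKM in WT and 0.972 to 1.45 FPKM in KO mice, from 14 to 24 reads per library.

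All 10 listed peptidases that shorten angiotensins were tested, and limma and limma voom each called 0 (0.46% and 1.19% of all genes). At an unadjusted p under 0.05, 5 were lower and 1 was higher in KO mice (8.83% and 12% of all genes), and the median log2 fold change was -0.19. The largest difference was that of Enpep, aminopeptidase A, which turns angiotensin II into angiotensin III (chromosome 3 from 129269175 to 129332720). Its level was 3.27, 4.04 and 3.82 FPKM in WT and 2.27, 1.94 and 2.57 FPKM in KO mice. All KO values were below all WT values, with a log2 fold change of -0.69 (SE 0.14, adjusted p 0.0788 by limma and 0.0647 by limma voom). Lnpep, the insulin-regulated aminopeptidase that binds angiotensin IV, had the highest mean level of the group. It was at 18.2, 16.3 and 15.4 FPKM in WT and 12.7, 13.4 and 14.9 FPKM in KO mice. These ranges did not overlap either (log2 fold change -0.28, adjusted p 0.186). Chosen after their values were seen, Anpep, Nln and Prcp were the other genes on the lower side (log2 fold changes of -0.39, -0.60 and -0.45) and Thop1 the gene on the higher side (0.44), with adjusted p from 0.121 to 0.187. Of the 3 kinin genes, Kng1 and Bdkrb1 had no read, and the bradykinin receptor Bdkrb2 had 3 to 13 reads per library (log2 fold change -0.24, adjusted p 0.813).

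Among 12 partners and signalling proteins of the angiotensin receptors, 11 were tested. At an unadjusted p under 0.05 by limma, 2 were higher and 1 was lower in KO mice (12% and 8.83% of all genes). Limma called 0 (0.46% of all genes) and limma voom called 1 (1.19%). That gene was Grk5, a kinase that phosphorylates active G-protein-coupled receptors (chromosome 19 from 60889749 to 61095968). Its level was 7.60, 8.58 and 7.74 FPKM in WT and 12.2, 13.1 and 16.6 FPKM in KO mice. Each KO value was above each WT value, and the WT values lay close together. Its log2 fold change was 0.79 (SE 0.13), with an adjusted p of 0.0562 by limma and 0.0197 by limma voom. Grk5 was called under 5 of 20 alternative settings, the same ones as Agt, with adjusted p up to 0.262 over all of them. Without WT 3 its log2 fold change was 0.77 (adjusted p 0.0310 by limma). The length deposited for Grk5, 3165 bases, is shorter than the 7055 bases of its exons in GENCODE M21, which scales all 6 values alike. Gna11, a G-protein subunit that couples the type 1 receptor to phospholipase C, had the highest mean level of the group. It was at 17.3, 16.5 and 19.5 FPKM in WT and 19.2, 19.7 and 19.0 FPKM in KO mice, with overlap (log2 fold change 0.12, adjusted p 0.474 by limma). The alternatives gave Gna11 values below 0 with scaling outside the mitochondrial chromosome (-0.071) and with the GC percentage in the fit (-0.015).

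Of 6 genes of aldosterone synthesis, Cyp11b2 (aldosterone synthase), Cyp11b1 and Cyp21a1 had 0 reads in all 6 libraries. Cyp11a1 and Hsd3b1 had at most 3 reads in a library. Star, which carries cholesterol into mitochondria, was the only one tested. It was at 1.02, 0.711 and 1.38 FPKM in WT and 0.689, 0.944 and 0.712 FPKM in KO mice, with overlap (log2 fold change -0.34, adjusted p 0.511 by limma).

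Of 12 genes for steroid access to the mineralocorticoid receptor or known as steroid targets, 9 were tested. At an unadjusted p under 0.05 by limma, 2 were higher and 2 lower in KO mice (12% and 8.83% of all genes). Limma and limma voom each called 1 (0.46% and 1.19% of all genes). Fkbp5, a co-chaperone of steroid receptors that glucocorticoids induce, rose in the KO mice (chromosome 17 from 28399094 to 28517527). Its level was 1.48, 1.90 and 2.11 FPKM in WT and 7.06, 4.31 and 8.57 FPKM in KO mice. Each KO value was above each WT value, and KO 2 was the lowest of the KO libraries. The mean was 1.83 ± 0.322 FPKM in WT and 6.65 ± 2.16 FPKM in KO mice (SD, n = 3), a ratio of 3.64. The log2 fold change was 1.77 (SE 0.26, adjusted p 0.0462 by limma and 0.0150 by limma voom), and the call was lost under 12 of 20 alternative settings, with adjusted p up to 0.272. It was lost without any 1 of the libraries other than WT 3 (adjusted p 0.0542 to 0.158), and was kept without WT 3 (0.0199).

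None of the other 8 tested genes of this group was called. Tsc22d3, a glucocorticoid target with the highest mean level of this group, was at 33.5, 31.0 and 43.5 FPKM in WT and 37.2, 26.3 and 36.9 FPKM in KO mice, with overlap (log2 fold change -0.11, adjusted p 0.772 by limma). Sgk1, the kinase through which aldosterone acts on sodium channels, had a log2 fold change of 0.05 (adjusted p 0.877). Hsd11b2, which shields the receptor from glucocorticoids in the kidney, had 0 to 3 reads per library, and Hsd11b1, which regenerates them, was at 4.42 to 5.84 FPKM in WT and 4.77 to 5.31 FPKM in KO mice. Chosen after their values were seen, Zbtb16 was the other gene at an unadjusted p under 0.05 on the higher side and Per1 and the glucocorticoid receptor Nr3c1 those on the lower side. Zbtb16 was at 10.6, 13.3 and 3.75 FPKM in WT and 21.1, 15.5 and 21.7 FPKM in KO mice (log2 fold change 1.24, adjusted p 0.177), with its lowest value in WT 3, without which the log2 fold change was 0.69 (adjusted p 0.0630). Nr3c1 was at 15.8, 13.3 and 13.5 FPKM in WT and 11.1, 11.5 and 9.93 FPKM in KO mice, without overlap (log2 fold change -0.38, adjusted p 0.118).

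All 7 listed genes known to respond to angiotensin II were tested, and 0 were called by limma or limma voom (0.46% and 1.19% of all genes). At an unadjusted p under 0.05 by limma, 0 were higher and 1 was lower in KO mice (12% and 8.83% of all genes). Their median log2 fold change was -0.0059. Ctgf, a matrix growth factor with the highest mean level of this group, was at 25.5, 30.1 and 25.9 FPKM in WT and 25.2, 15.1 and 18.1 FPKM in KO mice. The KO values were lower without overlap, though KO 1 was close to WT 1 (log2 fold change -0.51, adjusted p 0.186 by limma). Of its exonic bases, 23.2% lie under exons of Gm15270 on the opposite strand. Ccl2, a chemokine that draws in monocytes, had the largest log2 fold change of the group, 0.79 (adjusted p 0.275). It was at 0.748, 0.612 and 1.75 FPKM in WT and 1.42, 2.14 and 1.59 FPKM in KO mice. The value of WT 3 lay among those of the KO mice, and without WT 3 the adjusted p was 0.0281 and Ccl2 was called. The fibrosis ligand Tgfb1 was at 5.23 to 7.13 FPKM in WT and 5.41 to 6.52 FPKM in KO mice.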

How the data were processed

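The libraries were polyadenylated RNA from the hearts of 3 WT and 3 Mc4r KO mice, grouped by the sample labels. The authors aligned the read pairs to mm10 with HISAT2 2.0.5 (per the submitters' processing notes), counted them with featureCounts and deposited FPKM per gene and library. The annotation release is not given in the sources used here. Identifiers were matched to GENCODE M21, where 99.8% were found, 98.1% with the same position as in the deposited table. Gene coordinates are those of M21. Each FPKM column belongs to 1 of the 6 libraries.

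Multiplied by gene length, 100% of the FPKM came out as whole reads (tolerance 0.02 reads), which were used as recovered reads. Because the unit is FPKM, the test was limma 3.58.1 (R 4.3.3) on log2(FPKM + 0.1) after median-of-ratios scaling, which was the same in all libraries, with empirical Bayes trend, all 6 libraries and no covariate, over genes whose mean FPKM reached 0.1. The p-values are two-sided, with Benjamini-Hochberg adjustment. Limma voom on the recovered reads was an alternative. The scripts were tested on simulated data. Single values used the exact permutation test. With 1 library per mouse, p-values rest on the spread between libraries. Differences between mice, tissue samples and library preparations cannot be told apart in it.

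Exon overlaps and shared words of 50 bases came from M21, and promoter sequences from RefSeq. Python 3.11.15 with matplotlib 3.10.9 drew the figures. The members, the gene lists and the tests were chosen with earlier results of these data known. Genes named are the members, Mc4r, wider genes called by limma or limma voom, the gene with the highest mean FPKM and the tested gene with the largest absolute log2 fold change in each wider group, and the 5 genes most like Agt. Other genes of the lists are named outside this rule, after their values were seen. The alternatives are those named in the closing section. Protein sequences, 2 genes of the wider list and a ratio with one of them were not used here.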

Additional observations from a re-analysis of the deposited data

How the results depend on the processing

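Of the 20 alternatives, a mean FPKM of at least 1, array weights, limma voom and protein-coding genes only each gave 1 member called (Agt) in place of 0. Leaving out each library in turn gave 0 to 2, with 2 (Agt and Agtr1a) without WT 3. On the wider list the 1 call became 0 with a pseudocount of 1, no filter, quantile normalization, scaling outside the mitochondrial chromosome, no trend, the replicate block and the GC covariate, and 2 with the 4 alternatives named first. It was 0 to 3 without each library, with 3 without WT 3. The 83 calls over all genes became 44 with a pseudocount of 1, 22 without a filter, 147 with a mean FPKM of at least 1, 49 with quantile normalization, 21 without trend, 435 with array weights, 11 with the replicate block, 214 with limma voom, 204 with protein-coding genes and 1 with the GC covariate. Leaving out a library gave 7 to 726, the highest without WT 3. FPKM as deposited, without scaling, gave the same 83 calls. The scaling factor was the same in all libraries, so this alternative repeats the fit reported. Scaling outside the mitochondrial chromosome gave 41, of which 16 were higher and 25 lower (57 and 26 in the fit reported), and the median over all genes moved from -0.011 to -0.19. The cause of these changes was not tested.

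None of the log2 fold changes that changed sign was called in the fit reported. Ace was at -0.020 with quantile normalization and -0.10 with scaling outside the mitochondrial chromosome, where Gna11 was at -0.071. With the GC covariate Gna11 was at -0.015 and Ccl2 at -0.074. Atp6ap2 was at 0.053 with array weights, 0.025 with limma voom and 0.016 to 0.054 without WT 1 (0.022), WT 3 (0.054), KO 1 (0.016) or KO 3 (0.027). Over all libraries left out, Atp6ap2 ranged from -0.11 to 0.054. Mas1 ranged from -0.53 to 0.029 (without KO 2) and Tsc22d3 from -0.21 to 0.058 (without KO 2; 0.037 without WT 3). The other values of named genes stayed on their side of the threshold and of 0 in 399 cases, passed the threshold in 12 and lost it in 12.

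The sources used here do not say that the replicate numbers pair the mice. Deviations from the group means of same-numbered libraries had correlations of -0.14, 0.0074 and -0.082 over 11297 genes. Libraries with different numbers had -0.032 to 0.115. With 3 libraries per group these values show no sign of pairing but cannot exclude it. With the replicate block Agt had an adjusted p of 0.0763, Agtr1a 0.205 and Nr3c2 0.168. Depth limits Agtr1b, Agtr2 and Ren1 to an upper bound and leaves Mas1 with few reads.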
